A study of Mus musculus with 13 samples.

Results

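The peroxisome is a single-membrane organelle that shortens very long-chain and branched fatty acids, begins the synthesis of ether phospholipids and breaks down the hydrogen peroxide that its oxidases release. It has no genome of its own, so its enzymes are made in the cytosol and imported by a set of proteins called peroxins. Brown fat is rich in peroxisomes, where they work beside the mitochondria in fatty acid oxidation and supply plasmalogens, a class of ether lipid. The genes described here were named as a list, 12 peroxins and 19 peroxisomal enzymes and transporters, and were matched by gene symbol to the 42416 Ensembl identifiers of the count files. All 31 were found, and all 31 were among the 13360 genes that passed the filter of more than 1 CPM (counts per M counts of the library) in at least 5 libraries. The rule that names them uses no measured value.

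Transcripts were counted in 8 iFAXLKO and 5 WT libraries of mouse interscapular brown adipose tissue (iBAT), 1 library for each numbered replicate. iFAXLKO mice carried homozygous loxP sites around Axl, which encodes a receptor tyrosine kinase, together with a tamoxifen-inducible Cre (CreERT2). Per the study's methods the Cre is driven by Adipoq, the adiponectin gene of adipocytes, so other cells of the depot keep Axl. WT mice carried the same floxed Axl without Cre. All mice were housed at room temperature with free access to high-fat diet (HFD) and were given tamoxifen every 3 weeks, so diet, tamoxifen and the floxed allele were shared by all 13 libraries and the Cre was carried by the iFAXLKO group alone. The study describes the controls as littermates and the animals as female, and 4 Y-linked genes had 0 counts in total. The labels number the replicates without stating that each is a separate mouse, so the p-values measure the spread between these libraries. The comparison asks how loss of Axl from adipocytes alters brown fat under HFD, and here it is read out in peroxisomal genes.

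Axl itself did not fall below WT in the iFAXLKO libraries, which had 33.1 ± 6.16 CPM (SD, n = 8) where WT had 27.8 ± 3.82 CPM (SD, n = 5). On the log2 scale the difference was 0.25 (SE 0.13, edgeR adjusted p 0.699), and the exact permutation p was 0.102. Groups are therefore called by their labels, and each direction below rests on them. Counts cover the whole gene and every cell type of the depot.

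Libraries held 22.44 to 32.6 M counts, at which 3 counts, the limit allowed by a count of 0, equal 0.092 to 0.134 CPM. That limit covers counting error only. The brown adipocyte markers were present in every library. Their summed level was 22461 to 28012 CPM in iFAXLKO (median 26265) and 24783 to 35660 CPM in WT (median 25992). WT replicate 2 held the 35660 CPM, and the next WT library, replicate 3, had 26493 CPM. The log2 fold change was below 0 for 13 of 14 markers, where it was for 53.6% of all genes. Fibroblast markers were higher for 10 of 10 genes at an unadjusted edgeR p under 0.05 (median log2 fold change 0.69), where 3.84% of all genes were. Their sum was 519 to 1180 CPM in iFAXLKO against 375 to 681 CPM in WT. Macrophage markers were higher for 6 of 6 genes at that p (median 0.41), summing to 108 to 203 CPM against 87.8 to 128 CPM. In neither list was an edgeR adjusted p under 0.05, with 0.122 (fibroblast) and 0.507 (macrophage) as the lowest. Skeletal muscle markers summed to between 3.46 and 5824 CPM in iFAXLKO and between 24.1 and 4095 CPM in WT. For 0 of 16 was the unadjusted edgeR p under 0.05, where it was for 7.38% of all genes. WT replicate 2 stood apart: it had the highest brown adipocyte sum, its Xist level was 247 CPM where the other libraries had 451 to 575 CPM, and it was given a quality weight of 0.1693 by limma-voom. In bulk tissue, fewer cells of a type and less RNA per cell cannot be told apart.

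Transcripts of the peroxisomal genes were slightly lower in iFAXLKO on balance, with no member past the adjusted limit. The log2 fold change was below 0 for 23 of 31 genes (74.2%), beside 53.6% of all genes tested, and above 0 for 8. Its median was -0.07, where the median over all genes was -0.01. Single genes lay between -0.29 (Acot4) and 0.16 (Far1). At an adjusted p under 0.05 edgeR called 0 of 31 members, with 0.127% of all genes called, and the lowest adjusted p among members was 0.412. DESeq2 also called 0 of 31, with 0.502% of all genes called. With limma-voom 0 of 31 members were called, and 23 of the 13360 genes tested.

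Without the adjustment, 4 of 31 members (12.9%) had an edgeR p under 0.05, where 7.38% of all genes did. All 4 were lower, namely Pex13, Cat, Pex3 and Pex7, and 3.54% of all genes were lower and 3.84% higher at that p. DESeq2 gave 5 members at an unadjusted p under 0.05, with 8.30% of all genes, and limma-voom gave 5, with 11.5% of all genes. In edgeR the 4 fell to 2 (6.45%) without WT replicate 1 or 5 or iFAXLKO replicate 6 or 7. In those fits 5.06% to 7.81% of all genes had such a p. Without iFAXLKO replicate 4 they fell to 1 (3.23%), where 5.18% of all genes had such a p. For 0 members did the CPM ranges of the groups fail to overlap, which was seen in 0.434% of all genes. The 95% interval of a fold change reached between 0.12 and 0.57 to each side on the log2 scale, with a median of 0.18, so changes of the size seen in most members were not detectable at this replication.

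**Figure D1:**
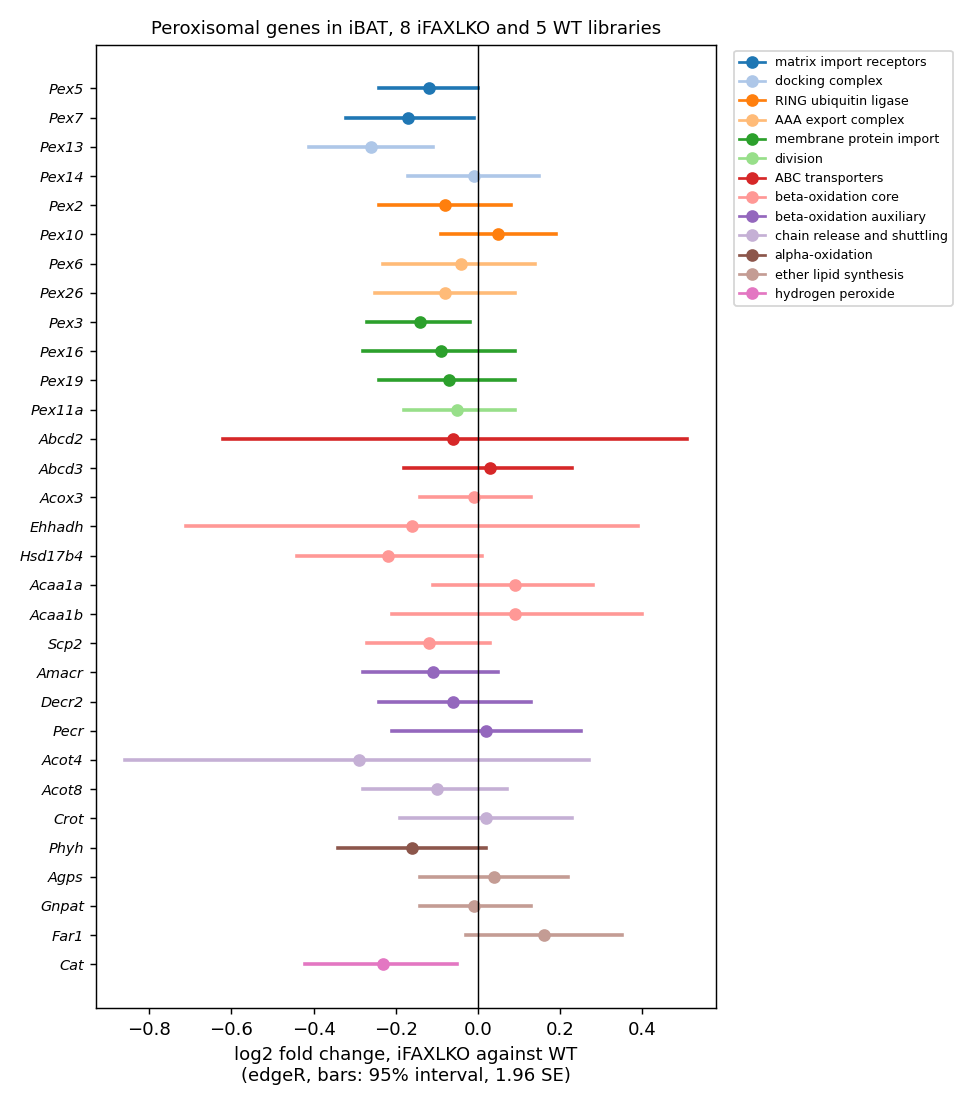
Log2 fold change of each of the 31 genes, iFAXLKO against WT, from edgeR (points), with the 95% interval (bars) and colours for the role in the organelle. 23 points lie below 0, and the bars of Abcd2, Ehhadh and Acot4 are the widest.

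The tilt depended in part on WT replicate 2. That library was the highest of all 13 for 14 of 31 members, where it was the highest for 25.5% of all genes and the lowest for 23.0%. Without it 19 members were below 0 and 12 above, with a median of -0.02, and 48.5% of all genes were below 0. Then 5 members had an unadjusted edgeR p under 0.05, where 12.0% of all genes did: Pex13, Cat, Pex5 and Pex3 were lower and Acaa1a was higher. With the brown adipocyte marker score as a covariate, 18 members were below 0 and the median was -0.02, and with the fibroblast score 21 were below 0, the median was -0.09 and 0 members had an unadjusted p under 0.05, where 1.32% of all genes did. The part of these markers in the result was not tested further.

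Promoter sequence is shown for Pex13 and Cat, which led the comparison, and for Acot4, which varied most between libraries. RefSeq (GRCm38.p6) gave the 250 bases before and 50 after the start for 26 of the 31 genes, 30 promoters in all. A direct repeat with a spacer of 1 base, AGGTCANAGGTCA, is the classic binding motif of PPARα with its partner RXR, a pair known for inducing peroxisomal fatty acid oxidation, and on either strand it was in 0 of 30 member promoters and in 0.0396% of all promoters. Its core AGGTCA was in the promoters of 4 of 26 genes (Acot4, Cat, Phyh and Scp2) and in 16.3% of all promoters. The cAMP response element TGACGTCA, through which brown fat genes answer adrenergic signalling, was in the Pex13 promoter alone of the 26 genes and in 1.79% of all promoters. Each line gives the strand of the gene 5′ to 3′, with the match in capitals.
Pex13, cAMP response element, chr11:23665959-23665990, minus strand: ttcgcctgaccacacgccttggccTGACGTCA
Cat, core, chr2:103485328-103485381, minus strand: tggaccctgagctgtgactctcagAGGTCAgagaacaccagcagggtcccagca
Acot4, near repeat on the opposite strand, chr12:84038342-84038378, plus strand: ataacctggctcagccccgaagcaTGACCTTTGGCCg

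The Pex13 match ended 76 bases before the RefSeq start, on the first exon base that GENCODE gives for Pex13, and the window lay in an intron of Pus10, which runs on the opposite strand. The Cat match ended 199 bases before the start, outside any annotated gene. The Acot4 match holds the core AGGTCA within GGNCANAGGTCA, a repeat that differs from the classic one at its outer copy and was searched for after the sequence had been seen, and 0.207% of all promoters held it. These matches describe letters only and show no binding.

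Matrix enzymes enter the organelle on soluble receptors. Pex5 carries proteins with the common carboxy-terminal signal and Pex7 those with the amino-terminal signal, among them thiolase and the ether lipid enzyme Agps. Pex5 (ENSMUSG00000005069, chromosome 6, 124396816 to 124415067) had 121, 119, 128, 132 and 125 CPM in WT replicates 1 to 5 and 105 to 123 CPM in iFAXLKO, with a median of 116. All 8 iFAXLKO libraries lay below the WT mean, although the upper libraries reached into the WT range. Its log2 fold change was -0.12 (SE 0.06, edgeR adjusted p 0.698), and the exact permutation p was 0.0132.

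Pex7 (ENSMUSG00000020003, chromosome 10, 19853900 to 19907689) had 49.9, 65.1, 49.8, 49.5 and 52.1 CPM in WT and 43.0 to 52.3 CPM in iFAXLKO, with a median of 47.0. WT replicate 2 was well above the other 4 WT libraries. The fold change was -0.17 (SE 0.08, edgeR adjusted p 0.675) on the log2 scale, and -0.08 without that library.

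Cargo-laden receptors dock on a membrane complex of Pex13 and Pex14, and Pex13 had the smallest p of the 31 genes. Pex13 (ENSMUSG00000020283, chromosome 11, 23646479 to 23665959) had 137, 137, 116, 114 and 128 CPM in WT and 91.3 to 118 CPM in iFAXLKO, with a median of 106. All 8 iFAXLKO libraries lay below the WT mean, and the lowest WT libraries overlapped with the highest iFAXLKO ones. The means were 105 ± 8.64 CPM (SD, n = 8) and 126 ± 11.1 CPM (SD, n = 5), so iFAXLKO was at 83.3% of WT. edgeR gave a log2 fold change of -0.26 (SE 0.08), an unadjusted p of 0.0037 and an adjusted p of 0.412. The exact permutation p was 0.00389. DESeq2 gave an adjusted p of 0.101 and limma-voom 0.268. The labels give each library a number, and these form a lower run (4 iFAXLKO, 2 WT) and an upper run (4 iFAXLKO, 3 WT). WT replicates 1 and 2 are the WT libraries of the lower run, so its differences rest in part on the library that stood apart. Mean log2 CPM of Pex13 differed by -0.45 in the lower and by -0.12 in the upper run, iFAXLKO minus WT. Pex14 had a log2 fold change of -0.01, with an interval of -0.17 to 0.15, and its sign turned with upper quartile scaling (0.01). About 25.2% of the 50-base runs of Pex14 transcripts were shared with an antisense transcript, Gm17029, whose own mean was 5.8 counts.

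Receptors are recycled after import. Pex2 and Pex10 are ring-finger ubiquitin ligases that mark Pex5, and Pex6 is an ATPase that, anchored to the membrane by Pex26, pulls it out. The log2 fold changes of these 4 genes were -0.08 (Pex2), 0.05 (Pex10), -0.04 (Pex6) and -0.08 (Pex26), each with an interval that includes 0. None of the 4 had an edgeR adjusted p under 0.895. Pex6 was the most abundant peroxin per length, at 66.2 CPM per kilobase of exon in WT and 64.2 in iFAXLKO, while Pex26 was the least, at 3.00 and 2.84.

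Membrane proteins are inserted by Pex19, their chaperone in the cytosol, and by its docking proteins Pex3 and Pex16. Pex3 (ENSMUSG00000019809, chromosome 10, 13523842 to 13553142) had 53.9, 49.6, 48.1, 52.6 and 50.3 CPM in WT and 43.0 to 52.3 CPM in iFAXLKO, with a median of 45.4. A single iFAXLKO library, replicate 8, lay above the WT mean. The log2 fold change was -0.14 (SE 0.06, edgeR adjusted p 0.647), with an exact permutation p of 0.0194 and differences of -0.18 and -0.12 in the lower and upper library numbers. Pex16 (-0.09) and Pex19 (-0.07) were also below 0, with adjusted p-values of 0.882 and 0.906. Pex11a, which shapes the membrane for division, was at -0.05 (interval -0.18 to 0.09). Of the 12 peroxins, 11 were below 0 (53.6% of all genes) and 3 had an unadjusted p under 0.05 (7.38% of all genes), with a median of -0.08. Without WT replicate 2, 8 of the 12 were below 0 (48.5% of all genes) and 3 had such a p (12.0%), with a median of -0.03, and with the brown adipocyte score 6 were below 0.

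**Figure D2:**
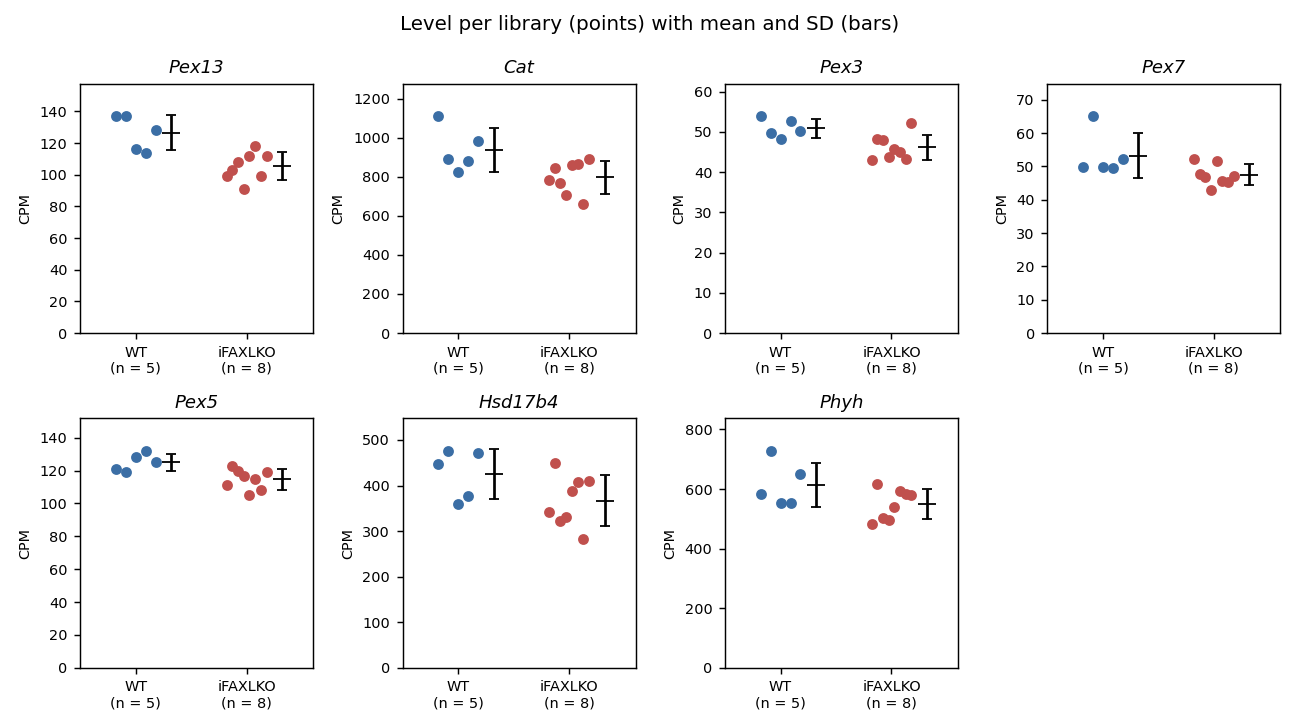
CPM of the 7 genes given in full, 1 point for each library, with the group mean and SD beside the points and axes from 0. WT points for Pex13 lie at 114 to 137 CPM and iFAXLKO points at 91.3 to 118 CPM, and the ranges of the groups overlap in every panel.

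Acyl-CoAs cross the peroxisomal membrane through ABC transporters, of which Abcd3 takes up branched and dicarboxylic acids and Abcd2 very long-chain and polyunsaturated ones. Abcd2 differed far more between libraries than between groups. It had 125, 110, 48.1, 64.1 and 102 CPM in WT and 52.2 to 146 CPM in iFAXLKO, with a median of 71.0, a 3.03-fold range over the 13 libraries. Its log2 fold change was -0.06 (SE 0.29, edgeR adjusted p 0.987), and the difference was -0.57 in the lower and 0.30 in the upper library numbers. Abcd3 was at 0.03 (interval -0.18 to 0.23). It had 475 CPM in iFAXLKO replicate 6 and 467 CPM in replicate 8, where the other 11 libraries had 329 to 381 CPM.

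β-oxidation in the peroxisome runs from an acyl-CoA oxidase through a bifunctional enzyme to a thiolase. Acox3, the branched-chain oxidase in this list, was at -0.01 (interval -0.14 to 0.13). The multifunctional enzyme Hsd17b4 (ENSMUSG00000024507, chromosome 18), which handles very long-chain and branched substrates, had 447, 476, 359, 376 and 472 CPM in WT and 282 to 449 CPM in iFAXLKO, with a median of 365. One iFAXLKO library, replicate 2, exceeded the WT mean. Its log2 fold change was -0.22 (SE 0.12, edgeR adjusted p 0.717), and the exact permutation p was 0.0925.

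Ehhadh, the other bifunctional enzyme and a well-known PPARα target, varied 3.11-fold over the libraries. It had 251, 156, 340, 379 and 239 CPM in WT and 154 to 481 CPM in iFAXLKO, with a median of 204. The highest value, in iFAXLKO replicate 3, was far above the next iFAXLKO library at 296 CPM. The log2 fold change was -0.16 (SE 0.28, edgeR adjusted p 0.949), and the difference turned from 0.38 in the lower to -0.64 in the upper library numbers.

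The thiolases Acaa1a and Acaa1b were both at 0.09, with intervals of -0.11 to 0.28 and -0.21 to 0.40. Acaa1b shared 39.6% of its 50-base runs with other genes and 30.5% with Acaa1a, so reads may have been divided between the pair or dropped and their separate levels are uncertain. Scp2, which encodes the thiolase for branched chains and a sterol carrier, was at -0.12 (interval -0.27 to 0.03), with 1 of 8 iFAXLKO libraries above the WT mean, and it shared 29.7% of its runs with the pseudogene Scp2-ps2.

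Auxiliary enzymes fit unusual chains to the pathway. Amacr, the racemase for methyl-branched acyl-CoAs, was at -0.11, the dienoyl-CoA reductase Decr2 at -0.06 and the enoyl-CoA reductase Pecr at 0.02. The edgeR adjusted p-values of these were 0.837, 0.946 and 0.989. Shortened chains leave as free acids or carnitine esters. Acot4, a thioesterase for dicarboxylic acids, had the widest range of all members, 4.95-fold, with 13.1, 12.0, 29.1, 23.2 and 14.2 CPM in WT and 5.87 to 23.0 CPM in iFAXLKO, with a median of 14.2. Its log2 fold change of -0.29 (SE 0.29, edgeR adjusted p 0.884) was the lowest of the members but was no larger than its error. The thioesterase Acot8 was at -0.10 and Crot, the carnitine octanoyltransferase, at 0.02.

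Phyh starts the α-oxidation of phytanic acid, a branched fatty acid from the diet. Phyh (ENSMUSG00000026664, chromosome 2, 4919019 to 4938730) had 584, 728, 554, 553 and 649 CPM in WT and 482 to 616 CPM in iFAXLKO, with a median of 560. It was the second member by level per length after Cat, at 324 CPM per kilobase in WT and 290 in iFAXLKO, and WT replicate 2 was again the highest library. Its log2 fold change was -0.16 (SE 0.09, edgeR adjusted p 0.74), and the difference was -0.32 in the lower and -0.02 in the upper library numbers. Without WT replicate 2, which is in the lower numbers, the log2 fold change was -0.09.

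Over all 13 libraries, ether lipid synthesis was the only role group of more than 1 gene with a median above 0, at 0.04. Gnpat and Agps make the ether bond inside the organelle, and Far1 supplies the fatty alcohol. Gnpat was the steadiest member, with a 1.18-fold range over 13 libraries and a fold change of -0.01 (interval -0.14 to 0.13) on the log2 scale. Agps was at 0.04 (interval -0.14 to 0.22). Far1 was at 0.16 (interval -0.03 to 0.35, edgeR adjusted p 0.748), with 7 of 8 iFAXLKO libraries above the WT mean. The signs of Gnpat and Agps turned under some alternatives. Far1 kept its direction in all of them, with 0.02 as its lowest value. WT replicate 2 was the lowest library for Agps (25.7 CPM) and Far1 (10.1 CPM). Without it Agps was at -0.02, Gnpat at 0.02 and Far1 at 0.09. Both ABC transporters were then above 0 (Abcd2 0.03, Abcd3 0.04), so ether lipid synthesis was no longer the only such group. Of 6 genes that act later in ether lipid synthesis or turnover, 5 were below 0 (53.6% of all genes), with a median of -0.08. An unadjusted p under 0.05 was found for 0 of them (7.38% of all genes).

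Catalase, which turns the hydrogen peroxide of the oxidases into water and oxygen, was the most abundant member per length. Cat (ENSMUSG00000027187, chromosome 2, 103453849 to 103485160) had 1110, 892, 824, 880 and 981 CPM in WT and 658 to 891 CPM in iFAXLKO, with a median of 812. All 8 iFAXLKO libraries lay below the WT mean, and 4 of them reached above the lowest WT library. The means were 797 ± 83.3 CPM (SD, n = 8) and 937 ± 112 CPM (SD, n = 5), that is 305 and 359 CPM per kilobase. edgeR gave a log2 fold change of -0.23 (SE 0.10), an unadjusted p of 0.0266 and an adjusted p of 0.614. By exact permutation p was 0.0264. The difference was -0.36 and -0.13 in the lower and upper library numbers.

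**Figure D3:**
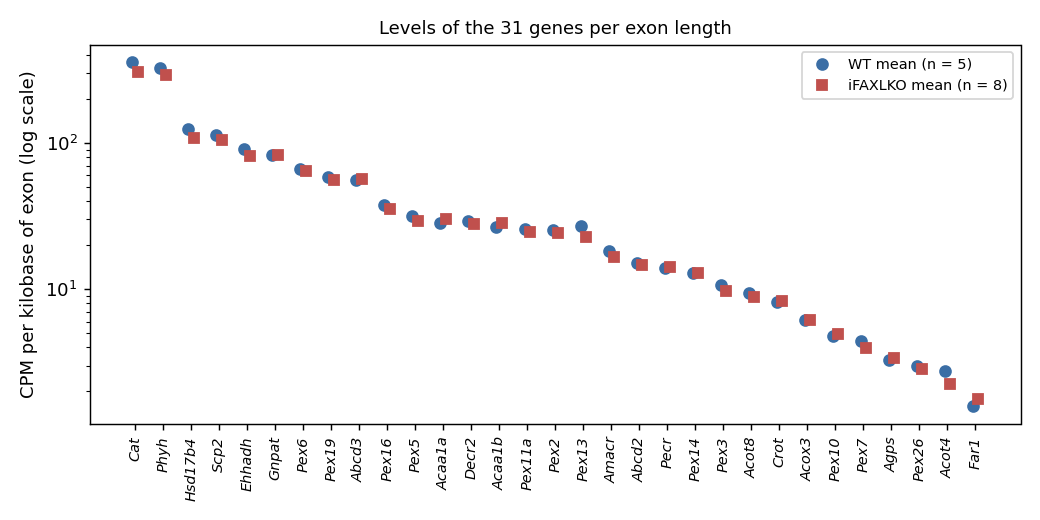
Mean CPM per kilobase of exon of each gene in WT (n = 5) and iFAXLKO (n = 8), on a log axis and ordered by the mean over all libraries. Cat and Phyh lie at 290 or more, and Far1, Acot4 and Pex26 are at 3.00 or less in both groups.

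The members spanned more than 2 orders of magnitude per length. After Cat and Phyh came Hsd17b4 (125 CPM per kilobase in WT), Scp2 (114), Ehhadh (91.6) and Gnpat (82.6). Ehhadh, with a coefficient of variation of 32.3% in WT, was not separated from its neighbours by more than that spread. At the low end were Acot4 (2.74) and Far1 (1.58). Summed over the 31 genes, libraries held 4166 to 5013 CPM in iFAXLKO (median 4715) and 4794 to 5337 CPM in WT (median 5082), and Cat and Phyh made up the largest shares.

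The spread between libraries had a structure that the groups did not follow. Abcd2 fell into 2 ranges, 102 to 146 CPM in 6 libraries (iFAXLKO replicates 2, 6 and 8 and WT replicates 1, 2 and 5) and 48.1 to 72.7 CPM in the other 7. The same 6 libraries were also the highest for Hsd17b4 (407 to 476 against 282 to 388 CPM), Crot (45.5 to 54.5 against 36.6 to 44.4 CPM) and Pex19 (220 to 247 against 180 to 219 CPM). Besides Abcd2, which picked them out, these 6 were the highest libraries for 3 members, and they were the highest for 1.12% of all genes. Lep, the white adipocyte marker leptin, had 24.8 to 68.6 CPM in these 6 libraries and 2.12 to 25.4 CPM in the other 7. Its ranges thus overlapped narrowly, at WT replicate 5 (24.8 CPM) and iFAXLKO replicate 1 (25.4 CPM). The other measured markers also overlapped between these sets, with Nnat at 14.5 to 32.2 against 4.62 to 19.3 CPM and Hoxc8 at 2.45 to 3.74 against 2.47 to 3.32 CPM. Of the remaining white adipocyte markers, Tcf21 and Wt1 were at 0 in all libraries and Hoxc9 and Hoxc10 at 0 in at least 1. The summed level of the 7 white adipocyte markers was 12.6 to 86.8 CPM in iFAXLKO and 11.1 to 92.7 CPM in WT, and the part of white adipocyte RNA in this pattern was not tested.

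Ehhadh and Acot4 shared a different set of libraries. The 3 highest for both were iFAXLKO replicate 3 and WT replicates 3 and 4, with 481, 340 and 379 CPM of Ehhadh and 23.0, 29.1 and 23.2 CPM of Acot4. In these 3 libraries Abcd2 was low, at 58.1, 48.1 and 64.1 CPM. Both sets hold libraries of both groups, and the libraries were picked out by these values, so no test was made.

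**Figure D4:**
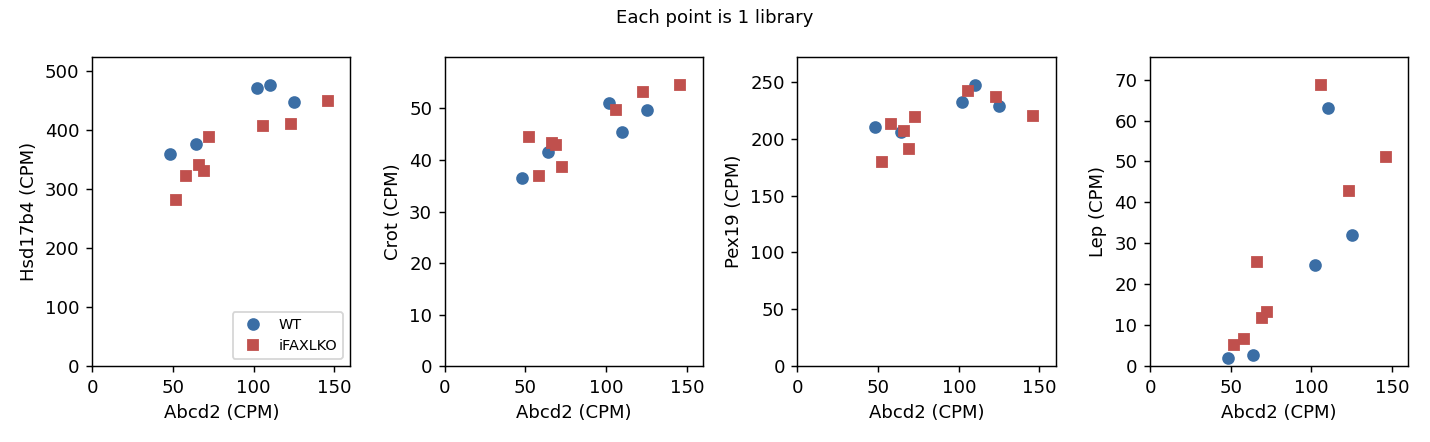
CPM of Hsd17b4, Crot, Pex19 and Lep against CPM of Abcd2, 1 point for each library, with WT as circles and iFAXLKO as squares and all axes from 0. The 6 libraries with 102 to 146 CPM of Abcd2 are of both groups and hold the highest values of the 3 peroxisomal genes.

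**Figure D5:**
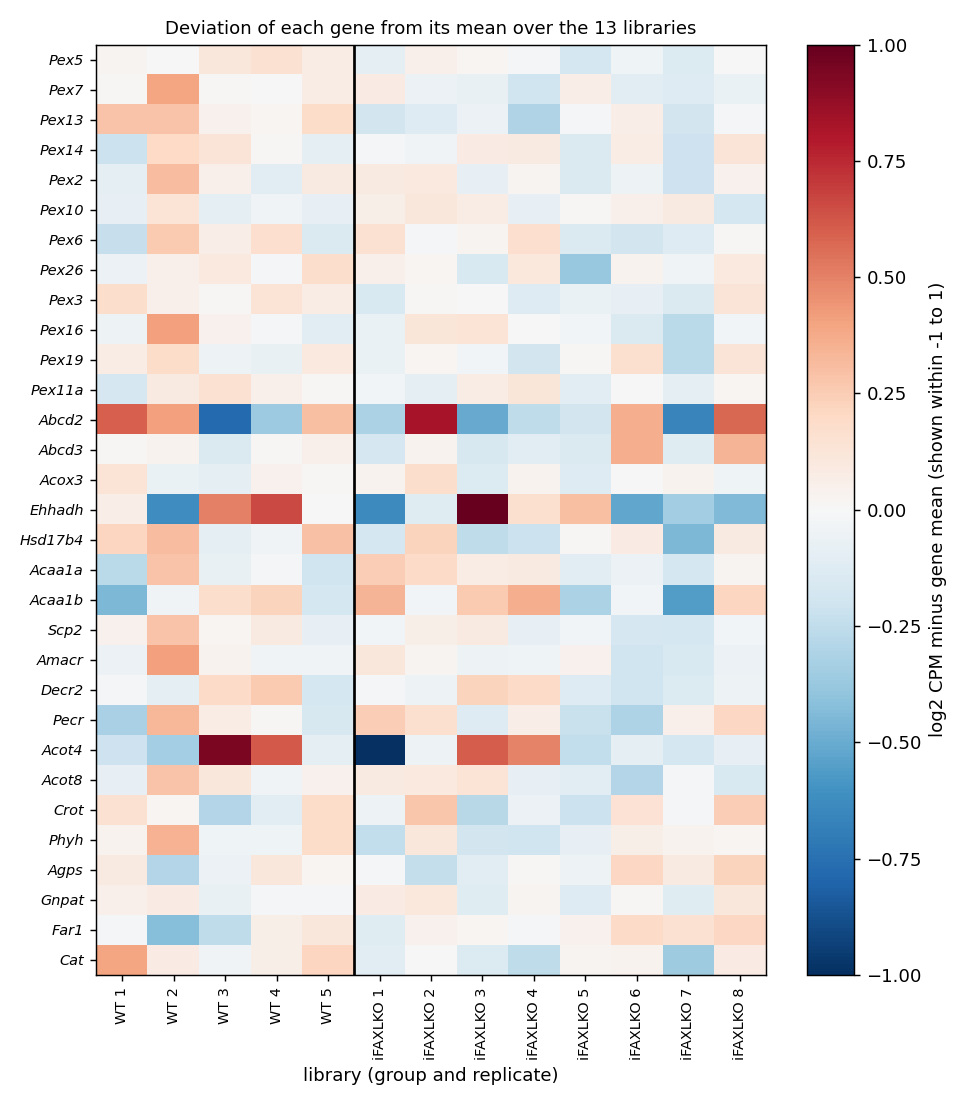
Log2 CPM of each gene in each library minus the mean of that gene over the 13 libraries, shown within -1 to 1, with WT left of the line and iFAXLKO right of it. Abcd2, Ehhadh and Acot4 carry the strongest colours on both sides of the line, and WT replicate 2 is above the gene mean for most peroxins.

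Within each run of library numbers fewer members were below 0 than over all libraries. In the lower run 17 of 31 were below 0, with a median difference of mean log2 CPM of -0.04. The share of all genes below 0 was not computed within either run, so neither count has a background beside it. In the upper run 22 were below 0, with a median of -0.09. The sign was the same in both runs for 16 members, 12 of them negative. The lower run has WT replicates 1 and 2 as its only WT libraries, and replicate 2 stood apart. What the library numbers stand for is not given in the labels.

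Other genes listed for the organelle gave counts near those of the members. Of 53 further genes listed here as peroxisomal, 44 passed the filter and 0 had an edgeR adjusted p under 0.05 (0.127% of all genes). An unadjusted p under 0.05 was found for 5 (11.4%), all lower, where 7.38% of all genes had one and 3.54% were lower. In all, 34 of the 44 were below 0 (77.3%), where 53.6% of all genes were, with a median of -0.08. Without WT replicate 2, 26 were below 0 (59.1%), where 48.5% of all genes were, with a median of -0.04. Of the 5, Ephx2, the soluble epoxide hydrolase, was at -0.30 (SE 0.11, adjusted p 0.512). Acox2, an oxidase for branched chains and bile acid precursors, was at -0.60 (SE 0.22, adjusted p 0.55), with 1.01 to 2.75 CPM in iFAXLKO and 1.76 to 3.22 CPM in WT. Hacl1, which cleaves the chain in α-oxidation, was at -0.21, Mpv17, a membrane channel protein, at -0.15 and the protease Lonp2 at -0.14. Libraries ranged from 422 to 676 CPM in iFAXLKO and from 597 to 837 CPM in WT for Ephx2.

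Transcription factors and coactivators that act on peroxisomal genes were tested in a list of 15, all of which passed the filter. edgeR called 0, and 1 (6.67%) had an unadjusted p under 0.05, where 7.38% of all genes did. It was the nuclear receptor coactivator Ncoa1 at -0.26 (SE 0.11, adjusted p 0.628). Ppard was at -0.13 (adjusted p 0.734). Ppara had 204, 52.5, 107, 128 and 200 CPM in WT and 63.0 to 158 CPM in iFAXLKO, with a median of 95.3. WT replicate 2 was the lowest of all libraries for it. The log2 fold change of Ppara was -0.42 (SE 0.31, adjusted p 0.824), with 2 of 8 iFAXLKO libraries above the WT mean.

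Mitochondrial fatty acid oxidation, the larger pathway that receives the shortened chains, also lay slightly below WT. Of its 20 genes 18 were below 0 (53.6% of all genes), with a median of -0.14. edgeR called 0 (0.127% of all genes) and DESeq2 called 1 (0.502%). At an unadjusted edgeR p under 0.05, 4 were lower and 1, Cpt1a at 0.18, was higher, where 7.38% of all genes had such a p. WT replicate 2 had the highest mean log2 CPM of these genes, 10.32, where the other WT libraries had 9.98 to 10.08. Without it 15 of 20 were below 0 (48.5% of all genes) and the median was -0.05. The 5 genes fell to 2 without WT replicate 2 or 5 or iFAXLKO replicate 3 or 4. In those fits 5.06% to 12.0% of all genes had such a p. With the fibroblast score they fell to 0, where 1.32% of all genes had such a p. With the brown adipocyte score 8 of 20 were below 0 (49.2% of all genes), with a median of 0.01. Etfa, which passes electrons from the acyl-CoA dehydrogenases, had 1315, 1697, 1514, 1390 and 1448 CPM in WT and 1094 to 1294 CPM in iFAXLKO. Its groups thus did not overlap, as was seen for 0.434% of all genes. Its log2 fold change was -0.27 (SE 0.08, adjusted p 0.407). Acadvl was at -0.23 and Hadhb at -0.25, each with an adjusted p of 0.619. The difference between the mitochondrial and peroxisomal medians was not tested.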

How the data were processed

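The authors deposited raw read counts, 1 whole number per Ensembl identifier and library, with no normalization. Per the submitters' processing notes, bcl2fastq 2.20, fastp 0.20.0, STAR 2.7.4a, DESeq2 and GRCm38.p6 were used. The methods of the study, which cover several experiments, name Trim Galore, hisat2 and ribosomal RNA depletion, whereas the labels give polyadenylated RNA and a TruSeq RNA kit. How reads were counted, and whether by strand, is not given in the sources used here, so reads of overlapping antisense genes cannot be told apart. Total counts were 22.44 to 32.6 M. Any 2 libraries of a group differed by a chi-square of at least 15.26 per degree of freedom, so each was counted as 1 replicate.

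A gene was tested if 5 or more libraries had above 1 CPM of it. The test was run in R 4.3.3 with edgeR 4.0.16 (TMM factors, robust quasi-likelihood F test, 2-sided), with Benjamini-Hochberg adjustment over 13360 genes and a limit of 0.05. The SE was the fold change divided by the square root of F, and an interval is 1.96 SE. A prior count of 2 went into log2 CPM. Single genes were also tested by exact permutation over all 1287 ways to label 8 of 13 libraries, 2-sided, smallest p 0.000777. Lists were described by counts and medians. The scripts were tested on simulated data.

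The 31 genes and all lists were chosen with earlier results of these data known. Given in full were members past the adjusted limit or with an unadjusted p under 0.05, at least the 6 with the smallest p and the 3 with the highest level per kilobase. For other lists, genes past the limit or the 3 with the smallest p were named, with Mpv17 and Lonp2 as the others of 5. Abcd2, Ehhadh and Acot4, with the libraries they share, were followed after their values were seen, as were Far1 and Gnpat as the ends of a range. Exon lengths and positions are from GENCODE M21 (GRCm38), promoters from RefSeq. Alternatives were DESeq2 1.42.0, limma-voom (limma 3.58.1) with sample quality weights, upper quartile or RLE factors, totals that leave out mitochondrial genes and the 10 most abundant ones, protein-coding genes alone, a filter of 1 count in all, a block by replicate number, the lower or upper run of library numbers, brown adipocyte, fibroblast and skeletal muscle scores as covariates, and each library left out. A white adipocyte score as a covariate was added after seeing the data.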

Additional observations from a re-analysis of the deposited data

Results flagged for a closer look

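In 6 of 62 checks of a gene within a group, 1 library lay further from its neighbour than the 95% limit of Dixon's test allows, where chance gives about 1 in 20. WT replicate 2 was the high library for Pex7 (65.1 CPM, next 52.1), Pex10 (17.8 CPM, next 15.8), Pex16 (85.1 CPM, next 66.3) and Amacr (59.6 CPM, next 45.9). WT replicate 3 was low for Abcd3 (333 CPM, next 372), and iFAXLKO replicate 3 was high for Ehhadh (481 CPM, next 296). Without WT replicate 2 the log2 fold change of Pex7 was -0.08 in place of -0.17, Pex10 was at 0.09 in place of 0.05 and Pex16 at 0.00 in place of -0.09.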

How the results depend on the processing

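Over 13 alternatives that keep all libraries and 13 that leave out 1, edgeR, DESeq2 and limma-voom called 0 of 31 members. Of the 31, 0 to 6 had an unadjusted p under 0.05, where 1.32% to 12.0% of all genes did. The members' median ranged from -0.09 to -0.02 over the former and from -0.10 to -0.02 over the latter. The count of all genes called, 17, was 67 in DESeq2, 8 with the fibroblast score, 7 among protein-coding genes alone and 7 with the replicate block, and 14 to 19 without 1 library. DESeq2 called 1 mitochondrial fatty acid oxidation gene. The causes were not tested. Same-numbered libraries of the groups had correlations of 0.3925, 0.422, 0.1877, 0.1807 and -0.6138 between their deviations, for replicates 1 to 5. Such values cannot show or exclude pairing, and the numbers were not taken as pairs in the main test. In the block, iFAXLKO replicates 6 to 8 have no WT partner and do not inform the fold change. It left 0 members called and a median of -0.05. The white adipocyte score gave 24 members below 0 and 6 at an unadjusted p under 0.05, where 10.9% of all genes had one.

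At 2 decimals, 11 members kept their direction under every alternative, 3 (Pex11a, Acaa1b and Scp2) reached 0.00 without turning and 17 turned, all 17 with fold changes of 0.16 or less in size. With the brown adipocyte score, Pex14 turned to 0.08, Pex2 to 0.03, Pex6 to 0.06, Pex16 to 0.08, Amacr to 0.06, Acot8 to 0.03, Gnpat to 0.01, Abcd3 to -0.01, Crot to -0.05 and Agps to -0.09. With the fibroblast score, Pex14 turned to 0.06, Pex10 to -0.01, Pex19 to 0.10, Abcd2 to 0.05, Pecr to -0.05 and Gnpat to 0.01. With limma-voom, Pex14 turned to 0.02, Pex2 to 0.01, Abcd2 to 0.15, Agps to -0.04 and Gnpat to 0.03. With the replicate block, Pex6 turned to 0.01, Abcd3 to -0.10, Ehhadh to 0.02, Decr2 to 0.01, Crot to -0.05 and Agps to -0.05. Upper quartile factors turned Pex14 to 0.01, Acox3 to 0.02 and Gnpat to 0.02, and protein-coding genes alone turned Acox3 to 0.01 and Gnpat to 0.01. Without 1 library, ranges crossed 0 for Pex14 (-0.06 to 0.04), Pex6 (-0.10 to 0.02), Abcd2 (-0.20 to 0.09), Abcd3 (-0.03 to 0.05), Acox3 (-0.03 to 0.03), Pecr (-0.05 to 0.11), Crot (-0.03 to 0.07), Agps (-0.02 to 0.08) and Gnpat (-0.02 to 0.02). The lowest count of any member in a library was 162 (Acot4).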
